A study of Mus musculus with 10 samples.

Results

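The genes studied here, *Ret*, *Gfra1*, *Etv4*, *Etv5*, *Spry1*, *Spry2*, *Spry4*, *Spred1* and *Dusp6*, belong to the GDNF-Ret pathway and to the negative feedback on ERK signalling, and they were followed in organoids of the mouse ureteric bud (UB) and collecting duct (CD) and in CD cells of adult mice (adult mCD). They were chosen by symbol as a pathway list and are 9 of the 39273 genes in the deposited table. *Ret* and *Gfra1* encode the receptor tyrosine kinase and its co-receptor. *Etv4* and *Etv5* encode Ets transcription factors, and *Spry1*, *Spry2*, *Spry4*, *Spred1* and *Dusp6* encode inhibitors of the Ras-ERK cascade. All 9 passed the filter on low counts and were tested.

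RNA-seq was available for 10 libraries, 2 in each of 5 groups. UB organoids were grown in Matrigel from T-shaped UBs of *Wnt11*-RFP +/- embryos of a C57BL/6 x Swiss Webster background, aged embryonic day 11 per the labels, and were sampled after 5, 10 and 20 days. Their medium held GDNF, FGF9, R-Spondin1, the retinoid TTNPB, the GSK3 inhibitor CHIR99021, the BMP and TGF-beta receptor inhibitors LDN193189 and A83-01, the JAK inhibitor JAKI and the p38 inhibitor SB202190. CD organoids were made from UB organoids of day 10, in a medium with FGF9, the ROCK inhibitor Y27632, the Notch pathway inhibitor DAPT, the MEK inhibitor PD0325901, aldosterone and vasopressin, and with no GDNF. The UB and CD organoids thus shared FGF9 but differed in GDNF, in the MEK inhibitor and in most other agents, so that these cannot be told apart in any comparison between them. The adult mCD were sorted by FACS, per the series' design text, from *Hoxb7*-Venus kidneys at an age of 2 months, whereas their sample labels call them organoids of embryonic age and *Wnt11*-RFP +/- genotype. *Hoxb7*-Venus marks the ureteric lineage, so that the sort was for CD cells as a whole.

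In the kidney, GDNF from the mesenchyme binds Gfra1 and activates Ret on the cells at the UB tip, and branching depends on this signal. Active Ret engages adaptors that switch on Ras, Raf, MEK and ERK, and Etv4 and Etv5 act downstream of Ret to keep the tip programme. Sprouty and Spred proteins restrain Ras and Raf, and Dusp6 is a phosphatase that inactivates ERK in the cytoplasm. Transcription of these inhibitors is itself induced by ERK in many tissues, so that they serve both as brakes and as readouts of the pathway.

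The upstream sequences of 3 feedback genes are shown because these genes, like *Etv4* and *Etv5*, were lower in CD organoids than in UB organoids, and because Ets factors and AP-1 are known effectors of ERK. Each is the 250 bases before the gene's start in RefSeq on GRCm38.p6, written 5' to 3' on the gene's strand, with matches to the searched motifs in capitals. *Dusp6* lies on the plus strand (chr10:99262981-99263230), *Spry1* on the plus strand (chr3:37639697-37639946) and *Spry2* on the minus strand (chr14:105896820-105897069), and each window ends where the GENCODE M21 gene begins.
Dusp6: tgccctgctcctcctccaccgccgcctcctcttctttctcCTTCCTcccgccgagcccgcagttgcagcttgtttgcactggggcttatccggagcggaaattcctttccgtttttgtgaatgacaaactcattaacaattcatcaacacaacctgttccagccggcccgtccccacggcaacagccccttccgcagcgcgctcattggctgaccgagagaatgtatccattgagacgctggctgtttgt
Spry1: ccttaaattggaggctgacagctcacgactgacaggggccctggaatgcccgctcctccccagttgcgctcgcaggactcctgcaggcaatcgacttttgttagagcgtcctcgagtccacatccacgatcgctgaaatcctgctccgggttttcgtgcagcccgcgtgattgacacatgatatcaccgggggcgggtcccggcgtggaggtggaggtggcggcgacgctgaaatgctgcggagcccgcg
Spry2: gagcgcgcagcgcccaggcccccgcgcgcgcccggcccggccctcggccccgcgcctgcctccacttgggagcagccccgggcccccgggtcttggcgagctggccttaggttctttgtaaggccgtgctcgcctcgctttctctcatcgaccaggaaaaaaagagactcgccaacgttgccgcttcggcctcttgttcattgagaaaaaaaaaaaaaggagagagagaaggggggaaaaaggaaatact
Of the 9 genes, 6 had such a window, namely *Gfra1*, *Etv5*, *Spry1*, *Spry2*, *Spred1* and *Dusp6*, and *Ret*, *Etv4* and *Spry4* had none in the table used. Both strands were searched for 4 motifs, the Ets motif CCGGAAG, the PEA3 motif AGGAAG, the AP-1 motif TGANTCA and the CRE motif TGACGTCA. The Ets and PEA3 motifs share their last letters but cannot match the same bases on the same strand. The only match was an AGGAAG on the reverse strand of *Dusp6*, from 210 to 205 bases before its start, which is capitalised as CTTCCT in its line above. Of 32851 RefSeq promoter windows of this length, 6.91% held the Ets motif, 29.5% the PEA3 motif, 6.75% the AP-1 motif and 1.55% the CRE motif. A match is a description of the letters and not a binding site.

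Total counts were 22858971 to 24536676 in the 4 libraries of days 5 and 10, and 11913613 to 16759872 in the other 6. The limit of detection, set at 3 counts and covering counting error only, was worth 0.109 to 0.241 CPM (counts scaled to a library of 1e6). Ureteric epithelium markers (*Hoxb7*, *Gata3*, *Pax2*, *Krt8* and *Cdh1*) summed to 1609 to 2184 CPM in UB organoids and to 3168 to 3536 CPM in CD organoids and adult mCD. The summed principal cell markers were 968 and 844 CPM and the intercalated cell markers 995 and 919 CPM in CD organoids, against at most 82.9 and 4.43 CPM in UB organoids. In adult mCD the principal cell markers were at 7375 and 7096 CPM and the intercalated cell markers at 1596 and 1626 CPM. The adult mCD also carried markers of other nephron segments, with proximal tubule markers at 3370 and 4073 CPM and thick ascending limb markers at 3295 and 3487 CPM, against at most 34.0 and 5.61 CPM in any organoid library. All 6 proximal tubule and all 3 thick ascending limb markers were above 3 counts in adult mCD. Distal convoluted tubule markers were at 465 and 514 CPM and endothelial markers at 420 and 404 CPM in adult mCD, against at most 14.4 and 2.45 CPM in organoids. Stroma markers were at 216 and 103 CPM in CD organoids and 103 and 110 CPM in adult mCD, against at most 29.0 CPM in UB organoids, and leukocyte markers at 51.9 and 46.0 CPM in CD organoids, against at most 13.8 CPM in UB organoids and 23.7 CPM in adult mCD. Nephron progenitor markers were at most 18.7 CPM in any library. Mitochondrial genes took 0.969% to 1.58% of counts at days 5 and 10, 3.10% to 3.39% at day 20 and in CD organoids, and 9.64% and 9.86% in adult mCD. The part of these differences in the results for the 9 genes was not tested. The Y-linked markers (*Eif2s3y*, *Kdm5d*, *Uty* and *Ddx3y*) summed to at most 0.875 CPM at days 5 and 10 and to between 230 and 295 CPM in the other 6 libraries. The sequenced day 10 organoids and the CD organoids thus did not come from the same mix of embryos. Between day 20 or CD organoids and days 5 or 10, embryo sex, depth and mitochondrial share cannot be told apart from the group. CD organoids and day 20 lie on the same side of this split. In bulk RNA, fewer cells of a type and less RNA per cell cannot be told apart.

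Levels are given as CPM with TMM factors for each library, as replicate 1 and replicate 2. Changes are log2 fold changes with their standard error (SE) from edgeR's quasi-likelihood test over 24410 genes, with Benjamini-Hochberg adjustment over all of them, and a gene was said to rise or fall when its adjusted p was at most 0.01. A change of more than 4-fold, the fold threshold of the study for UB tip against UB trunk, is given beside it. The labels do not say whether the 2 libraries of a group came from separate cultures or animals, so that p-values measure only the spread between these libraries. The 7 comparisons share libraries and are not independent of each other.

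**Figure D1:**
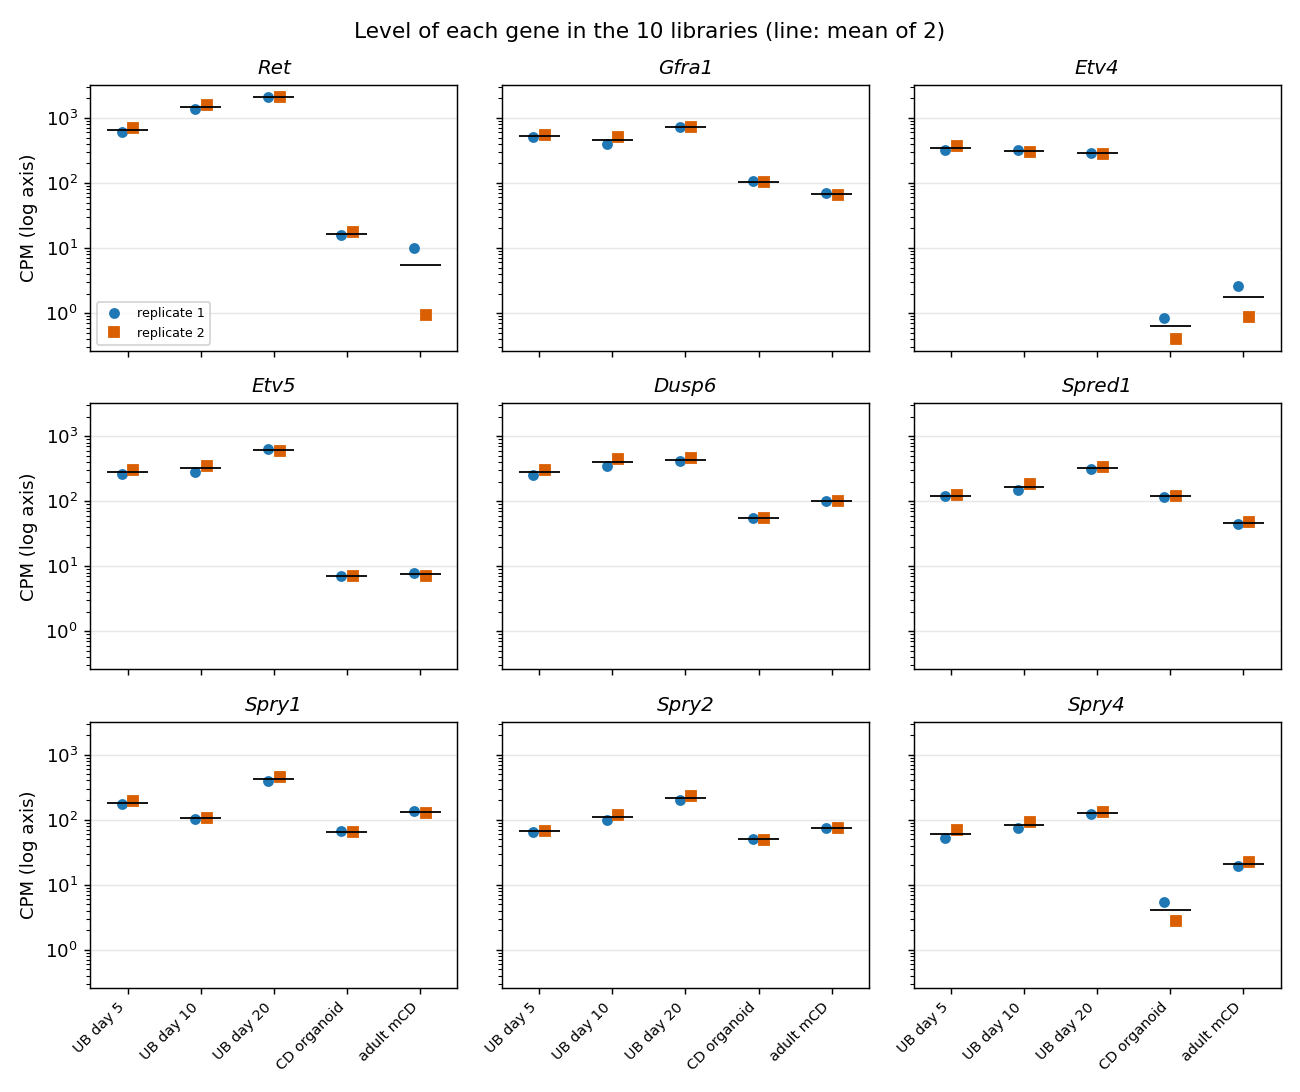
Level of each of the 9 genes in CPM on a log axis, in the 5 groups, with a circle for replicate 1, a square for replicate 2 and a line for their mean. *Ret*, *Etv4* and *Etv5* lie at or below 17.4 CPM in all CD organoid and adult mCD libraries and at or above 264 CPM in all UB organoid libraries, while *Spred1* in CD organoids (117 and 120 CPM) lies beside day 5 (119 and 124 CPM).

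During expansion from day 5 to day 20, 8 of the 9 genes rose, and *Etv4* did not pass the test. Over all genes tested, 16.1% rose and 19.2% fell between these days. The median log2 fold change was 1.11 over the 9 genes and -0.05 over all genes. None of the 8 rose more than 4-fold, whereas 4.68% of all genes did. The genes did not move in step, as 4 rose and 1 fell from day 5 to day 10, where 10.5% of all genes rose and 11.8% fell, and 6 rose and none fell from day 10 to day 20, where 8.76% rose and 9.94% fell.

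In CD organoids all 9 genes were lower than in UB organoids, both of day 10 and of day 20. The share of all genes that fell was 19.8% against day 10 and 17.1% against day 20. The median log2 fold change of the 9 genes was -2.87 against day 10 and -2.995 against day 20, where all genes had medians of -0.15 and 0. More than 4-fold falls were seen for 6 genes against day 10 and 8 against day 20, while 5.71% and 4.73% of all genes fell as much. In adult mCD all 9 were likewise lower than at day 20, with falls of more than 4-fold for 7 genes, where 22.7% of all genes fell and 6.89% fell more than 4-fold.

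*Ret* (chromosome 6, 118151745 to 118197718, minus strand, GENCODE M21 on GRCm38) encodes the kinase that transmits the GDNF signal, and it was the most abundant of the 9 genes at days 10 and 20 per length of exon. It was at 610 and 702 CPM at day 5, 1358 and 1608 CPM at day 10, 2100 and 2075 CPM at day 20, 15.8 and 17.4 CPM in CD organoids, and 10.0 and 0.943 CPM in adult mCD. The days did not overlap, and both CD organoid libraries lay far below every UB organoid library. The log2 fold change from day 5 to day 10 was 1.18 (SE 0.302, adjusted p = 0.0087 from edgeR), and that from day 10 to day 20 was 0.49 (SE 0.299, adjusted p = 0.246 from edgeR), which did not pass but did with only the 4 libraries compared (0.53, adjusted p = 0.00682 from edgeR). The first of these was lost without either day 5 library (adjusted p = 0.0653 and 0.0296 from edgeR), with a filter on each group (filterByExpr, adjusted p = 0.0158 from edgeR), with DESeq2 (adjusted p = 0.226) and with limma (adjusted p = 0.219). Over the whole span *Ret* rose by 1.67 (SE 0.306, adjusted p = 0.000492 from edgeR), a call lost with DESeq2 (adjusted p = 0.0483) and with limma (adjusted p = 0.0785).

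In CD organoids *Ret* fell by 6.48 on the log2 scale against day 10 (SE 0.397, adjusted p = 1.18e-08 from edgeR), to 1.12% of the day 10 level. Against day 20 the level was 0.795% (log2 fold change -6.97, SE 0.404, adjusted p = 8.87e-09 from edgeR). The adult mCD libraries held 133 and 12 counts of *Ret*, so that they differed from each other by more than the CD organoid libraries did. Adult mCD were lower than day 20 by 8.54 on the log2 scale, and the log2 fold change lay at -11.10 without adult replicate 1 and at -7.71 without adult replicate 2. Between adult mCD and CD organoids the log2 fold change of *Ret* was -1.57 (SE 0.460, adjusted p = 0.0115 from edgeR), which did not pass, but the call depended on the analysis. It passed without adult replicate 1 (-4.09, adjusted p = 2.26e-07 from edgeR), without adult replicate 2 (-0.71, adjusted p = 0.0043 from edgeR), with library totals (-1.96, adjusted p = 0.00209 from edgeR), with limma (-2.78, adjusted p = 0.00915), with a replicate block (-1.58, adjusted p = 0.00869 from edgeR) and with only the 4 libraries compared (-1.55, adjusted p = 0.000427 from edgeR). The difference did not pass with RLE size factors, with filterByExpr, with DESeq2 or without either CD organoid library. The order of *Ret* levels was thus day 20, day 10, day 5, CD organoids and adult mCD. The neighbours day 20 and day 10, and CD organoids and adult mCD, were not separated in the main fit of all 10 libraries. Other fits of all 10, with library totals or with a replicate block, did separate CD organoids and adult mCD, whereas those with RLE size factors or DESeq2 did not.

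*Gfra1* (chromosome 19, 58235604 to 58455909, minus strand), the GPI-anchored co-receptor that binds GDNF, moved by smaller amounts. It was at 514 and 546 CPM at day 5, 394 and 518 CPM at day 10, 735 and 727 CPM at day 20, 106 and 103 CPM in CD organoids, and 69.3 and 64.5 CPM in adult mCD. Days 5 and 10 overlapped and their difference did not pass (log2 fold change -0.22, adjusted p = 0.13 from edgeR), though it did without day 10 replicate 2 (-0.44, adjusted p = 0.000205 from edgeR), whereas day 20 lay above both. It rose by 0.68 from day 10 to day 20 (SE 0.104, adjusted p = 0.000283 from edgeR) and by 0.46 from day 5 to day 20 (SE 0.104, adjusted p = 0.00223 from edgeR), and the latter was lost without day 5 replicate 1, day 20 replicate 1 or day 20 replicate 2 (adjusted p between 0.0132 and 0.0221 from edgeR). In CD organoids *Gfra1* fell to 22.9% of the day 10 level (log2 fold change -2.13, SE 0.110, adjusted p = 2.26e-09 from edgeR) and to 14.3% of the day 20 level. In adult mCD it was lower again, by 0.64 on the log2 scale than in CD organoids (SE 0.111, adjusted p = 0.000257 from edgeR). GENCODE M21 places the antisense gene *Gm16277* across the 3' end of *Gfra1*, and the strand setting of the counting is not given in the sources used here, so that reads of the pair cannot be told apart.

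Because *Ret* and *Gfra1* changed unequally, the balance of kinase to co-receptor transcripts shifted. Per kilobase of exon, the ratio of the *Ret* level to the *Gfra1* level was 0.961 and 1.04 in the day 5 libraries, 2.79 and 2.51 in those of day 10, and 2.31 and 2.31 in those of day 20. It was 0.121 and 0.137 in the CD organoid libraries and 0.117 and 0.0118 in the adult mCD libraries. *Gfra1* was thus the lower of the pair at days 10 and 20 and made up 88.6% ± 0.872 (SD, n = 2) of their summed level per kilobase in CD organoids.

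*Etv4* (chromosome 11, 101769742 to 101785371, minus strand) encodes a PEA3 family factor and was close to level through expansion. It was at 317 and 370 CPM at day 5, 321 and 304 CPM at day 10, followed by 295 and 284 CPM at day 20. No difference between the days passed, and the log2 fold change from day 5 to day 20 was -0.25 (SE 0.132, adjusted p = 0.151 from edgeR). In CD organoids it was at 0.854 and 0.401 CPM, from 12 and 5 counts, and in adult mCD at 2.64 and 0.865 CPM, from 35 and 11 counts. Both groups were thus above the limit of 3 counts but close to it.

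The fall of *Etv4* in CD organoids was larger than that of any other of the 9 genes, at -8.81 on the log2 scale against day 10 (SE 0.247, adjusted p = 1.10e-11 from edgeR) and -8.70 against day 20 (SE 0.248, adjusted p = 1.77e-11 from edgeR). The remaining level was 0.201% and 0.217%. These low counts made the size uncertain, as the log2 fold change against day 10 lay between -9.43 and -8.41 with 1 library left out, the lowest value being without CD organoid replicate 1. In adult mCD *Etv4* was at 0.605% of the day 20 level (log2 fold change -7.31, SE 0.217, adjusted p = 6.25e-12 from edgeR), and at -8.37 without adult replicate 1. The log2 fold change of adult mCD against CD organoids was 1.39 (SE 0.475, adjusted p = 0.0259 from edgeR), which did not pass and ranged from 0.38 to 2.00 with 1 library left out. It passed without adult replicate 2 (1.97, adjusted p = 0.000646 from edgeR) and with DESeq2 (1.52, adjusted p = 0.00644).

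*Etv5* (chromosome 16, 22381309 to 22439719, minus strand), the other PEA3 family factor, rose late in expansion. It was at 264 and 305 CPM at day 5, 287 and 355 CPM at day 10, 638 and 591 CPM at day 20, 7.19 and 7.14 CPM in CD organoids, and 7.91 and 7.23 CPM in adult mCD. Days 5 and 10 overlapped and their difference did not pass, though it did without day 10 replicate 1 (0.31, adjusted p = 0.00652 from edgeR), and the rise from day 10 to day 20 was 0.94 on the log2 scale (SE 0.0999, adjusted p = 1.50e-05 from edgeR). In CD organoids *Etv5* fell to 2.23% of the day 10 level (log2 fold change -5.48, SE 0.135, adjusted p = 3.74e-12 from edgeR) and to 1.17% of the day 20 level (log2 fold change -6.41, SE 0.138, adjusted p = 2.82e-12 from edgeR). CD organoids and adult mCD were not separated by the test, with a log2 fold change of 0.08 (SE 0.167, adjusted p = 0.734 from edgeR). This fold change turned to -0.31 with library totals and with limma, which scale the libraries alike, and to -0.02 without adult replicate 1.

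The 2 Ets factors exchanged rank during expansion. Per kilobase of exon, the ratio of the *Etv4* level to the *Etv5* level was 1.59 and 1.60 in the day 5 libraries, 1.48 and 1.13 in those of day 10, and 0.610 and 0.635 in those of day 20. It was 0.157 and 0.0743 in CD organoids and 0.441 and 0.158 in adult mCD, where *Etv4* counts were low.

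**Figure D2:**
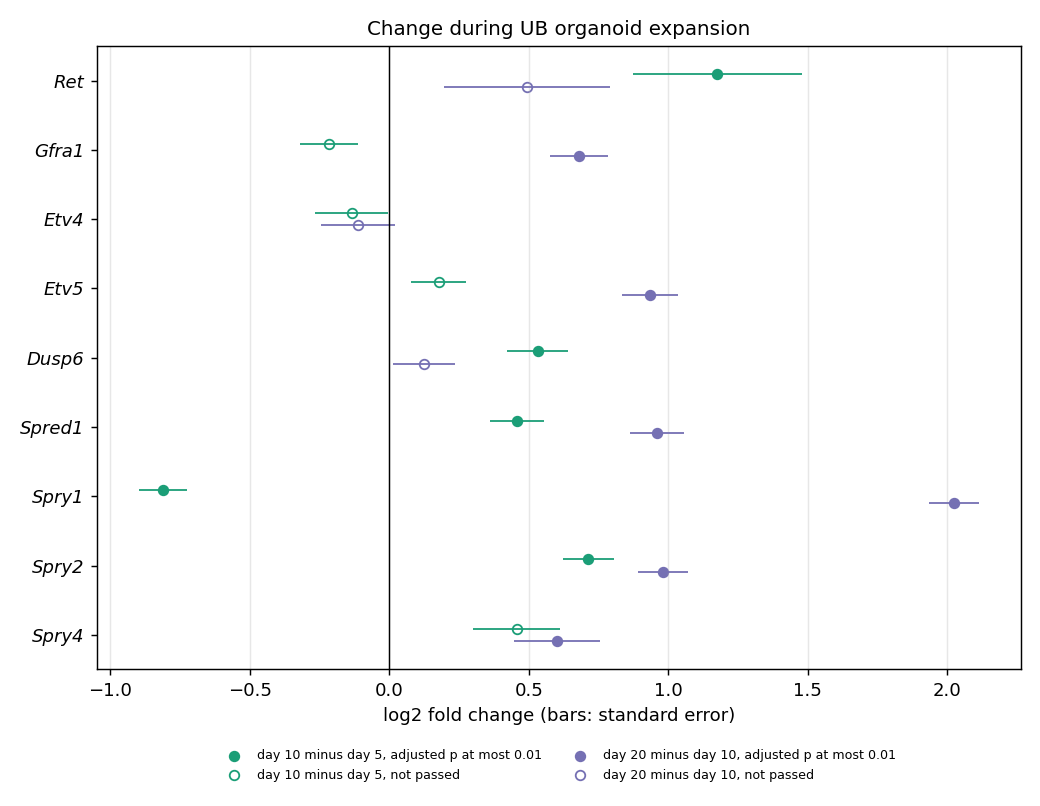
Log2 fold change (x axis) of each gene from day 5 to day 10 (green) and from day 10 to day 20 (purple), with the standard error as bars and open circles for changes with an adjusted p above 0.01. *Spry1* moves from -0.81 to 2.03, *Ret* and *Dusp6* pass only in the first step, and *Gfra1*, *Etv5* and *Spry4* only in the second, which was not tested as a difference between steps.

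Among the feedback inhibitors, *Spry1* (chromosome 3, 37639947 to 37644598, plus strand), which in the kidney is known to restrain Ret signalling in the UB, was the single gene of the 9 that fell and then rose. It was at 173 and 193 CPM at day 5, 104 and 104 CPM at day 10, 396 and 451 CPM at day 20, 67.1 and 63.8 CPM in CD organoids, and 138 and 125 CPM in adult mCD. None of the 5 groups overlapped. It fell by 0.81 on the log2 scale from day 5 to day 10 (SE 0.0858, adjusted p = 1.10e-05 from edgeR) and rose by 2.03 from day 10 to day 20 (SE 0.0879, adjusted p = 4.57e-09 from edgeR). Of the 9 genes only *Spry1* changed more than 4-fold in either step, and 1.66% of all genes rose as much from day 10 to day 20. It passed in every alternative analysis of that step, with the log2 fold change between 1.96 and 2.14. In CD organoids *Spry1* was at 62.9% of the day 10 level (log2 fold change -0.67, SE 0.0891, adjusted p = 2.48e-05 from edgeR) but at 15.4% of the day 20 level. In adult mCD it was higher than in CD organoids by 1.01 (SE 0.0902, adjusted p = 5.20e-07 from edgeR). The gene *Gm42922*, annotated as to be experimentally verified, overlaps *Spry1* on the opposite strand.

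*Spry2* (chromosome 14, 105891947 to 105896819, minus strand), a Sprouty that dampens signalling of many receptor tyrosine kinases, rose in both steps. It was at 64.2 and 67.7 CPM at day 5, 99.7 and 117 CPM at day 10, 198 and 229 CPM at day 20, 50.9 and 48.6 CPM in CD organoids, and 74.0 and 75.4 CPM in adult mCD. The days did not overlap, and the log2 fold changes were 0.71 (SE 0.0904, adjusted p = 4.96e-05 from edgeR) and 0.98 (SE 0.0894, adjusted p = 3.94e-06 from edgeR). In CD organoids *Spry2* kept 46.0% of the day 10 level (log2 fold change -1.12, SE 0.0942, adjusted p = 2.76e-07 from edgeR). It was higher by 0.59 in adult mCD than in CD organoids (SE 0.0965, adjusted p = 0.000169 from edgeR), which was lost with library totals (0.19, adjusted p = 0.103 from edgeR) and with limma (0.19, adjusted p = 0.0888). The values given to limma were scaled by library totals as well, so that both losses share that scaling.

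*Spry4* (chromosome 18, 38586247 to 38601415, minus strand), the third Sprouty gene, kept less of its level in CD organoids than *Spry1* and *Spry2*, a difference between genes that was not tested. It was at 51.7 and 69.4 CPM at day 5, 75.0 and 91.3 CPM at day 10, 124 and 129 CPM at day 20, 5.48 and 2.81 CPM in CD organoids, and 19.6 and 22.5 CPM in adult mCD. The groups did not overlap, though the CD organoid libraries rested on 77 and 35 counts. The first step of expansion did not pass (0.46, adjusted p = 0.0379 from edgeR), though it did with library totals (0.61, adjusted p = 0.00752 from edgeR) and without day 10 replicate 1 (0.58, adjusted p = 0.00186 from edgeR). The second just did (0.60, SE 0.154, adjusted p = 0.00992 from edgeR), which was lost without day 10 replicate 1, without either day 20 library, with library totals and with limma. The fall in CD organoids was to 4.99% of the day 10 level (log2 fold change -4.29, SE 0.217, adjusted p = 1.87e-09 from edgeR) and to 3.28% of the day 20 level. In adult mCD *Spry4* was 4.95-fold higher than in CD organoids (log2 fold change 2.31, SE 0.240, adjusted p = 2.20e-06 from edgeR), and 9.84% of all genes were more than 4-fold higher. The small RNA genes *Gm27369* and *Gm27804* lie on the opposite strand within *Spry4*.

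**Figure D3:**
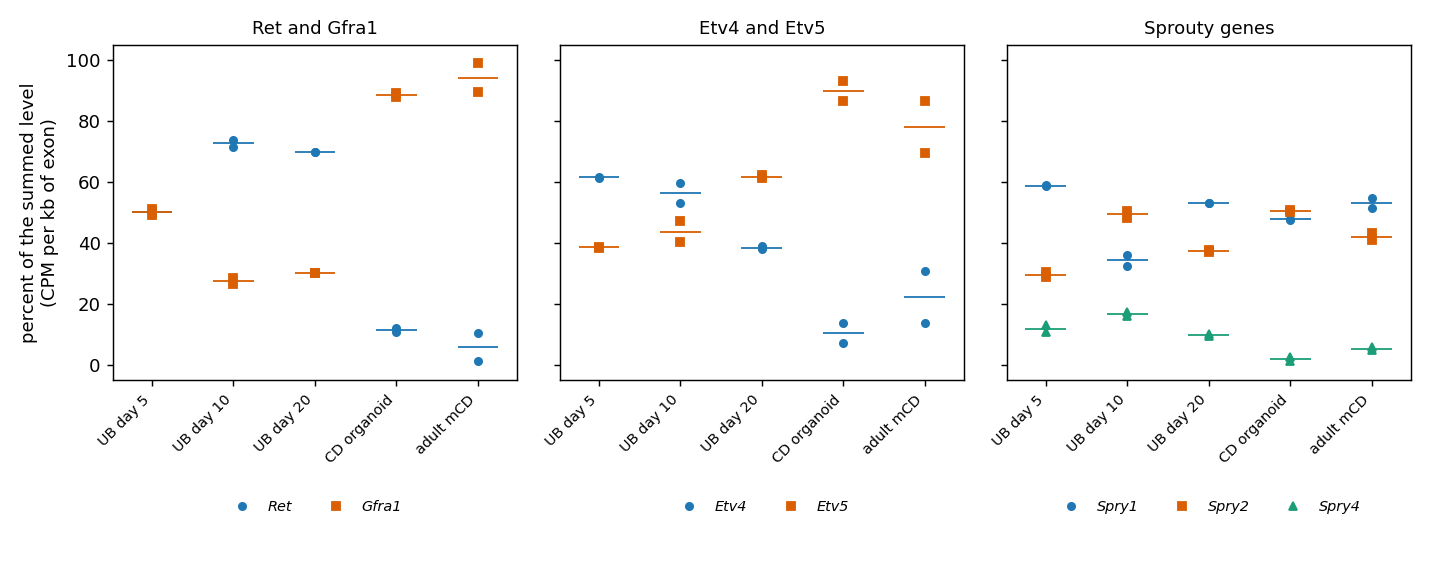
Share of each gene in the summed level per kilobase of exon of its family (y axis, percent), in the 5 groups, with 1 point per library and a line for the mean. *Gfra1* and *Etv5* make up most of their pair in CD organoids and adult mCD, and the *Spry4* share is 1.83% in CD organoids against 9.69% to 16.6% in UB organoids.

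Within the 3 Sprouty genes, the *Spry4* share of the summed level per kilobase was 10.7% and 12.9% in the day 5 libraries, 15.9% and 17.3% in those of day 10, and 10.1% and 9.28% in those of day 20. In the CD organoid libraries it was 2.37% and 1.29%, below every other library, and in adult mCD 4.73% and 5.65%. *Spry1* led at day 5 with a mean share of 58.7% ± 0.182 (SD, n = 2), and *Spry2* led at day 10 with 49.2% ± 1.57 (SD, n = 2). In the CD organoids *Spry2* and *Spry1* were nearly even, with mean shares of 50.5% and 47.7%.

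*Spred1* (chromosome 2, 117121374 to 117182279, plus strand) encodes a membrane protein that brings the Ras inhibitor neurofibromin to Ras. It was at 119 and 124 CPM at day 5, 147 and 186 CPM at day 10, 314 and 336 CPM at day 20, 117 and 120 CPM in CD organoids, and 44.2 and 47.9 CPM in adult mCD. The CD organoid libraries thus lay at the level of day 5, and the adult mCD lay below all other groups. It rose by 0.46 (SE 0.0971, adjusted p = 0.00253 from edgeR) and then by 0.96 (SE 0.0971, adjusted p = 9.35e-06 from edgeR) in the 2 steps of expansion, and the first was lost in several alternatives. The fall in CD organoids against day 10 was the smallest of the 9, at -0.49 (SE 0.0984, adjusted p = 0.000899 from edgeR), and was lost without either CD organoid library (adjusted p = 0.0147 and 0.0108 from edgeR). Unlike the Sprouty genes and *Dusp6*, *Spred1* was lower in adult mCD than in CD organoids, by 1.37 on the log2 scale (SE 0.105, adjusted p = 1.11e-07 from edgeR).

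*Dusp6* (chromosome 10, 99263231 to 99267489, plus strand), the ERK phosphatase, rose early. It was at 255 and 303 CPM at day 5, 353 and 453 CPM at day 10, 415 and 464 CPM at day 20, 55.0 and 55.1 CPM in CD organoids, and 99.5 and 100.1 CPM in adult mCD. Days 10 and 20 overlapped, and CD organoids and adult mCD each lay apart from all other groups. The rise from day 5 to day 10 was 0.53 (SE 0.111, adjusted p = 0.00221 from edgeR) and was lost without day 5 replicate 1 (adjusted p = 0.0329 from edgeR) and with only the 4 libraries compared (adjusted p = 0.0287 from edgeR). From day 10 to day 20 the change was 0.12 (SE 0.111, adjusted p = 0.441 from edgeR), which passed without day 10 replicate 2 (0.34, adjusted p = 0.00696 from edgeR). In CD organoids *Dusp6* fell to 13.7% of the day 10 level (log2 fold change -2.87, SE 0.122, adjusted p = 3.78e-10 from edgeR) and 12.5% of the day 20 level. In adult mCD it was higher than in CD organoids by 0.86 (SE 0.120, adjusted p = 3.90e-05 from edgeR).

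The 9 genes were thus reduced to very different extents in CD organoids, from 0.201% of the day 10 level for *Etv4* to 71.3% for *Spred1*. The Ets factors and *Ret* were left with at most 2.23%, *Spry4* with 4.99%, *Dusp6* and *Gfra1* with 13.7% and 22.9%, and *Spry2*, *Spry1* and *Spred1* with 46.0% or more. The receptor and co-receptor together summed to 121 and 120 CPM in CD organoids against 1753 and 2126 CPM at day 10, and the Ets factors to 8.05 and 7.54 CPM against 609 and 659 CPM. The 5 inhibitors summed to 296 and 291 CPM against 779 and 952 CPM.

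Between adult mCD and CD organoids, 4 of the 9 genes were higher in adult mCD and 2 were lower, where 21.6% of all genes were higher and 18.6% lower. With library totals and with limma, which scale the libraries alike, 3 were higher and 3 lower. The 4 were *Spry1*, *Spry2*, *Spry4* and *Dusp6*, and the 2 were *Gfra1* and *Spred1*. The adult mCD also held the markers of other nephron segments described above, with 3370 and 4073 CPM for the proximal tubule, and their part in these differences was not tested. Sorting by FACS, described for the adult mCD only, likewise cannot be told apart from the group in any comparison with them.

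**Figure D4:**
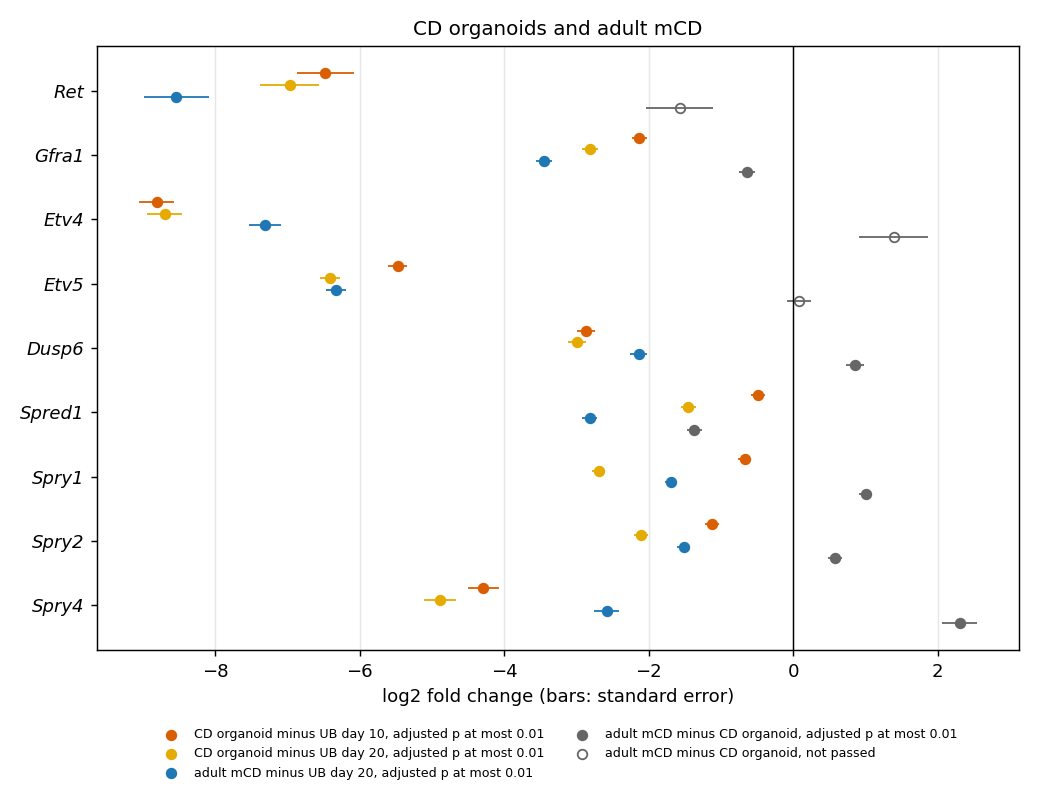
Log2 fold change (x axis) of each gene in CD organoids against day 10 (orange) and day 20 (yellow), in adult mCD against day 20 (blue) and in adult mCD against CD organoids (grey), with the standard error as bars and open circles for an adjusted p above 0.01. All orange, yellow and blue points lie below 0. Grey points that pass lie above 0 for *Spry1*, *Spry2*, *Spry4* and *Dusp6*, and those of *Etv4* and *Etv5* lie above 0 without passing.

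Other genes of the pathway were read from 5 lists of 57 genes, of which *Gfra3* had too few counts to be tested. The ligand *Gdnf* itself had 0 to 11 counts in every library, so that it was near the limit of detection in organoids and adult mCD alike. *Artn*, the ligand artemin, rose in CD organoids against day 20 from 2.37 and 2.71 to 8.33 and 8.42 CPM (log2 fold change 1.70, adjusted p = 1.13e-05 from edgeR), and *Nrtn*, which encodes neurturin, fell by 0.56 (adjusted p = 0.00924 from edgeR). Of the 6 ligands and other co-receptors tested, 2 rose and 2 fell in that comparison, where 16.8% of all genes rose and 17.1% fell.

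The cascade between receptor and nucleus moved by smaller amounts. Of 21 adaptors and Ras-ERK cascade genes, 9 rose and 1 fell in CD organoids against day 20, where 16.8% of all genes rose and 17.1% fell, none of the 21 by more than 4-fold. Their median log2 fold change was 0.04. *Mapk3*, which encodes ERK1, rose by 1.15 (adjusted p = 3.80e-07 from edgeR), and *Plcg1* fell by 0.91 (adjusted p = 2.32e-07 from edgeR). Against day 10 the counts were 9 and 2 with a median of 0.08, where 18.1% of all genes rose and 19.8% fell.

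Among 7 other receptor tyrosine kinases, 4 rose and 2 fell in CD organoids against day 20, beside the 16.8% and 17.1% of all genes. *Fgfr4* fell by 3.35 on the log2 scale (adjusted p = 2.46e-09 from edgeR) and *Fgfr1* by 1.30 (adjusted p = 9.15e-09 from edgeR), both receptors of fibroblast growth factors. *Egfr*, the epidermal growth factor receptor, rose by 3.06 (adjusted p = 4.55e-06 from edgeR), from 4.25 and 5.35 to 39.5 and 41.3 CPM. The balance depended on the day compared. Against day 10, 2 of the 7 rose and 3 fell, where 18.1% of all genes rose and 19.8% fell. The median log2 fold change of the 7 was 0.47 against day 20 and -0.16 against day 10.

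Of 17 other ERK target and feedback genes, 15 fell and none rose in CD organoids against day 20, 11 of them by more than 4-fold, with a median log2 fold change of -3.51. Of all genes, 17.1% fell, 4.73% fell more than 4-fold and 16.8% rose. Those of the largest change were *Egr1* (-8.71, adjusted p = 5.18e-11 from edgeR), *Fos* (-5.65, adjusted p = 1.32e-10 from edgeR) and *Ccnd1*, which encodes cyclin D1 (-5.34, adjusted p = 4.40e-10 from edgeR). The 2 that did not pass were *Dusp7* (-0.18) and *Phlda1* (-0.47). Against day 10, 12 fell and 1 rose, with a median of -1.27, where 19.8% of all genes fell and 18.1% rose, and the gene that rose was *Fos*.

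The immediate early genes of this list also differed between UB organoids of day 10 and day 20. *Fos* was at 3.41 and 3.21 CPM at day 10 and at 707 and 932 CPM at day 20 (change of 7.93 on the log2 scale, edgeR adjusted p = 1.31e-10). *Egr1* went from 107 and 123 CPM in the day 10 libraries to 1950 and 2349 CPM (4.22 on the log2 scale, edgeR adjusted p = 1.71e-08), and *Dusp5* from 6.50 and 5.43 CPM to 87.1 and 109 CPM (4.03 on the log2 scale, edgeR adjusted p = 1.02e-09). Of the 17 genes, 9 rose and 4 fell in this step, where 8.76% of all genes rose and 9.94% fell, and in which *Spry1*, *Spry2*, *Spry4*, *Spred1* and *Etv5* rose as well. These values of *Fos* and *Egr1*, which also respond to handling of cells, move with the rise of the feedback genes at day 20, and their part in it was not tested.

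In adult mCD against CD organoids, 12 of the 17 genes were higher, 8 of them by more than 4-fold, and 3 were lower. Of all genes, 21.6% were higher, 9.84% more than 4-fold higher and 18.6% lower. *Egr1* was at 4498 and 3679 CPM and *Fos* at 4239 and 4035 CPM in adult mCD, against 2.85 and 7.54 CPM and 12.3 and 20.5 CPM in CD organoids. The adult mCD were sorted by FACS, and no sort is described for the sequenced organoids. Handling of the cells, to which *Fos* and *Egr1* also respond, thus cannot be told apart from the group here. *Fosl1* had no counts in CD organoids and was at least 76.6-fold higher in adult mCD, with 3 counts per library as the floor. Of the tip genes known to depend on Ret or on *Etv4* and *Etv5*, *Cxcr4* rose by 1.89 (adjusted p = 6.89e-07 from edgeR) and *Mmp14* fell by 2.63 (adjusted p = 6.84e-08 from edgeR) in adult mCD against CD organoids.

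The list of tip genes known to depend on Ret or on *Etv4* and *Etv5* held 5 genes, among them *Wnt11*, *Cxcr4*, *Myb* and *Mmp14*. *Wnt11* is the tip ligand that marks UB progenitors, and the RFP reporter of these mice is used to track cells that express it. The paper describes the reporter's fluorescence, not its RNA, as uniform up to day 10 and dropping later. *Wnt11* RNA went from 376 and 496 CPM at day 5 to 192 and 109 CPM at day 10 and 19.2 and 22.7 CPM at day 20. It thus fell already from day 5 to day 10 (log2 fold change -1.53, SE 0.205, adjusted p = 7.71e-05 from edgeR). From day 10 to day 20, 3 of the 5 fell and none rose, where 9.94% of all genes fell and 8.76% rose. Among those that fell were *Wnt11* at -2.84 (adjusted p = 1.58e-06 from edgeR) and *Cxcr4* at -0.77 (adjusted p = 0.00122 from edgeR), while *Ret* was at 0.49 and *Etv5* at 0.94. In CD organoids 4 of the 5 fell against day 20, where 17.1% of all genes fell, among them *Wnt11* (log2 fold change -5.48) and *Myb* (-3.94).

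**Figure D5:**
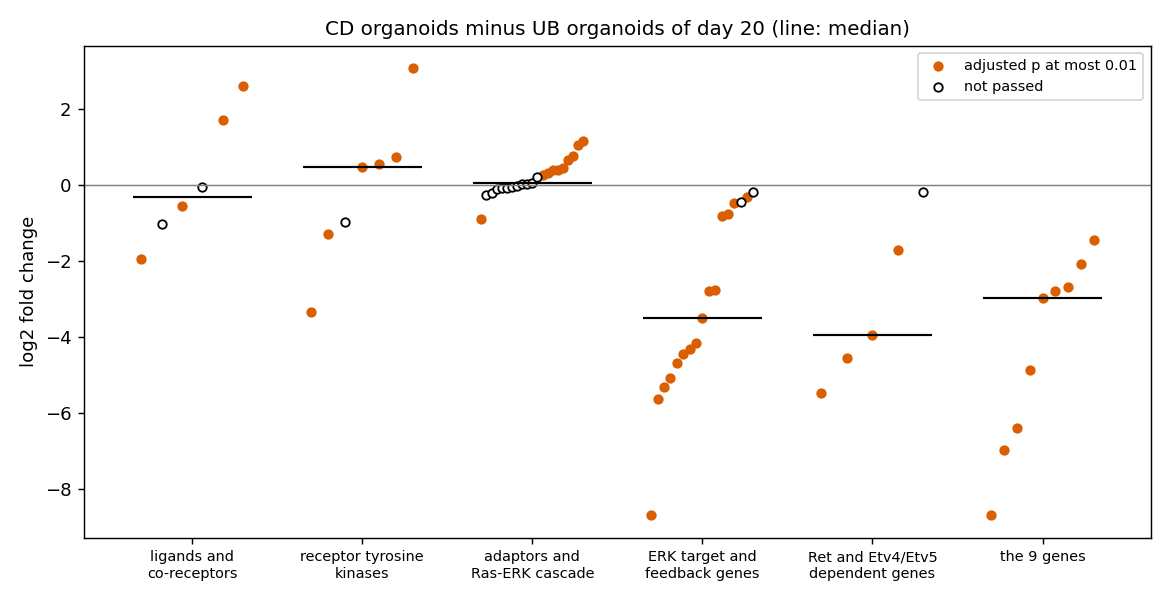
Log2 fold change (y axis) of CD organoids against UB organoids of day 20 for each gene of the 5 pathway lists and for the 9 genes, sorted within each list, with a line for the median and open circles for an adjusted p above 0.01. The cascade genes lie around 0 with a median of 0.04, and the ERK target and feedback genes have a median of -3.51.

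Finally, the genes of most similar pattern to *Ret*, *Etv5* and *Dusp6* were sought among 10538 genes with a mean of at least 10 CPM, by the root mean square difference of centred log2(CPM + 1) over the 10 libraries. For *Etv5* the nearest were *Adamts18* (0.119), *Slc27a6* (0.285), *Camkv* (0.499), *Hs3st3a1* (0.573) and *Ctnnd2* (0.654). For *Ret* they were *Stra6* (0.699), which encodes the receptor of retinol-binding protein, followed by *Etv4* (1.10), *Fbn2* (1.11), *Slc27a6* (1.14) and *Adamts18* (1.17). For *Dusp6* they were *Zcchc24* (0.194), *Dclk2* (0.236), *Tpst1* (0.271), *Elmo1* (0.272) and *Rrm2* (0.276). *Etv5* ranked 7th for *Ret*, whereas *Spry1* and *Spry2* ranked 1744th and 1752nd.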

How the data were processed

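Whole-number read counts per gene were deposited for 10 libraries. The authors trimmed and aligned the reads in Partek Flow, with STAR and mm10, and counted them on the GENCODE M24 annotation with an expectation-maximisation model that splits reads shared between genes. The submitters' processing notes name GRCm38.p6, FastQC 0.11.8, cutadapt 2.5, Trimmomatic 0.36, STAR and edgeR 3.28.1. The table also holds RPKM values and a signal that the authors named TMM values, in which each deposited count is multiplied by about the same factor throughout a library. This factor brings every library to about the same total, so that limma on these values scales libraries as the library totals alternative does. Between adult mCD and CD organoids the median of all genes was -0.345 with library totals and -0.357 with limma. The deposited RPKM values were not used between genes, because the deposited gene length was 1.00 to 4.23 times the exon length of GENCODE M21 for the 9 genes. The kits differ between the sources, with Direct-zol and KAPA in the paper and QIAgen RNeasy and Illumina TruSeq in the labels, and the strand setting of the counting was not given in the sources used here.

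Counts were tested with edgeR 4.0.16 in R 4.3.3 (glmQLFit and glmQLFTest), in a single fit of 5 group means over all 10 libraries, for the 24410 genes with at least 10 counts in all. TMM factors were 0.792 to 1.12, the prior count was 1, and p-values were adjusted after Benjamini-Hochberg. Standard errors were derived from the test statistic and are approximate. The spread rests largely on what all genes share, with a common dispersion of 0.00831 and prior degrees of freedom of 7.90 at the median. Levels per kilobase are CPM over the summed exon length of GENCODE M21, which holds no model of Spry3. Chi-square values per degree of freedom of 2.72 to 25.4 between the libraries of a group showed no library deposited in duplicate. They were 10.7 at day 5 and 25.4 at day 10, in the deeper libraries, against at most 4.97 in the other groups. The fit shares its spread over all groups, and the part of this difference in the p-values was not tested. In simulated data for CD organoids against day 10, with 23588 genes, 68 of 100 genes changed by a log2 of 1 and 100 of 100 changed by a log2 of 2 were recovered, with 3 false calls. The simulation gave all genes a single dispersion and all groups equal means apart from the changed genes. The data do not share these settings, so that the figures do not measure the power or error of the tests reported. Alternatives used DESeq2 1.42.0, limma 3.58.1 on log2(TMM value + 1), other scalings, filters, prior counts and thresholds, a replicate block, and each library left out in turn. All 9 genes are named. Of each pathway list and comparison described, at most the 3 passing genes of largest change with a mean of at least 5 CPM over the 4 libraries compared are named, together with genes that a count leaves out, and the values of some genes under this rule are not reported here. The 9 genes, the lists and the tests were chosen with earlier results of these data known.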

Additional observations from a re-analysis of the deposited data

How the results depend on the processing

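Over 63 values (9 genes in 7 comparisons) and their 819 alternatives, 769 kept their direction and side of the threshold, 25 lost and 18 gained a call, and 7 changed sign. The 769 include 63 with a prior count of 5, which leaves the p-values unchanged, so that these could not lose or gain a call. The alternatives with limma and with library totals scale the libraries alike and are not independent of each other. All falls of the 9 genes in CD organoids and adult mCD against UB organoids kept their direction, and with any fold change allowed the call of *Spred1* against day 10 was the only one lost, without either CD organoid library. The sign changes were in values that had not passed. From day 5 to day 10 *Etv4* was at 0.0118 with library totals and 0.0152 with limma, and *Etv5* ranged from -0.00125 (without day 10 replicate 2) to 0.31 (without day 10 replicate 1). From day 10 to day 20 *Dusp6* ranged from -0.0206 (without day 10 replicate 1) to 0.34 (without day 10 replicate 2). In adult mCD against CD organoids *Etv5* was at -0.311 with library totals, -0.314 with limma and from -0.0163 (without adult replicate 1) to 0.156 with a library left out. Library totals moved the median of all genes to -0.34 in that comparison, to -0.47 in adult mCD against day 20 and to 0.16 from day 5 to day 10. The number of genes passing from day 5 to day 10, 5 in the analysis reported, was 3 with only the 4 libraries compared and without day 5 replicate 2, and 2 without day 5 replicate 1, the lowest with 1 library left out, where the highest was 7, without day 10 replicate 1. With a change of more than 4-fold required, the number was 0 from day 5 to day 10, 1 from day 10 to day 20, 0 from day 5 to day 20, and 1 in adult mCD against CD organoids. Deviations of same-numbered libraries correlated between -0.0162 and 0.0809, the highest value being that between days 5 and 10. All genes tested entered these values, with the counting error of low counts, so that they cannot exclude a pairing by replicate number. A replicate block changed 1 of the 63 calls, with *Ret* passing in adult mCD against CD organoids (-1.58, adjusted p = 0.00869 from edgeR). Without a filter on low counts the fit took every gene's spread from the trend (infinite prior degrees of freedom), so that its p-values carry none of a gene's own. The cause of the other changes was not tested. With 5 and 12 counts of *Etv4* in CD organoids, fold sizes at such counts are uncertain.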

Other observations

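*Met*, the receptor of hepatocyte growth factor, rose in CD organoids by 1.29 on the log2 scale against day 10 (SE 0.124, adjusted p = 1.05e-06 from edgeR). It was also higher at each later day of expansion, with means of 73.1 CPM at day 5, 137 CPM at day 10 and 229 CPM at day 20. Its mean in CD organoids was 335 CPM. *Egfr* had fallen at each step of expansion, from 40.1 and 56.9 CPM at day 5 to 21.3 and 8.94 CPM at day 10 and 4.25 and 5.35 CPM at day 20, and it was at 39.5 and 41.3 CPM in CD organoids and 124 and 112 CPM in adult mCD. *Fgfr3* was at 0.570 and 0.561 CPM in CD organoids and at 37.0 and 42.0 CPM in adult mCD, which also hold markers of other nephron segments, and the part of these in the difference was not tested. *Il17rd*, which encodes the feedback inhibitor Sef, fell through expansion from 165 and 154 CPM at day 5 to 94.3 and 91.5 CPM at day 10 and 52.7 and 52.2 CPM at day 20, while *Spry2*, *Spred1* and *Dusp6* were higher at day 20 than at day 5. *Etv1*, the third PEA3 family gene, was at 13.2 and 12.1 CPM at day 5, 33.3 and 42.8 CPM at day 10, 107 and 102 CPM at day 20, 6.34 and 5.21 CPM in CD organoids and 8.89 and 10.7 CPM in adult mCD. *Il17rd* and *Etv1* were chosen after their values were seen.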
